A study of Mus musculus with 17 samples.

Results

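Alveolar lung tissue of SPC/cRaf transgenic mice that looked normal under the microscope (unaltered lung) was set against alveolar tissue of healthy wild type, non-transgenic mice. The 4 unaltered arrays were labelled male, from mice of 6, 5, 6 and 6 months, and the 5 non-transgenic arrays were labelled male, female, female, female and male, from mice of 7, 7, 11, 7 and 11 months. They are 9 of the 17 arrays of a study that also held 4 dysplasias and 4 adenocarcinomas of transgenic mice. In this line the transgene is expressed under the SPC promoter, taken from the gene for surfactant protein C, which is active in alveolar epithelium, and the tissue cut out held other cells as well. Each unaltered sample has the animal label of a dysplasia sample, which means that the lungs it came from also held lesions, and the label of unaltered replicate 2 names 2 animals. The 2 groups do not overlap in age, so age and transgene cannot be told apart. The table holds 23238 transcript clusters (the array's gene-level units), and the comparison was made over the 14939 that carry exactly 1 gene symbol, which name 14807 different genes. Values are log2 RMA values, so a difference of 1 is a 2-fold change.

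The transgene's product acts in the RAS, MEK and ERK signalling chain, and surfactant protein C is made by alveolar type II cells, which secrete surfactant and renew the alveolar lining. Type II cells also make proteins of innate defence and, after injury, some proteins known best from the liver, where interleukin-6 and STAT3 drive the acute phase response. Alveolar macrophages clear surfactant from the airspace, type I cells and capillary endothelium form the surface for gas exchange, and lymphocytes patrol the septa between them. Expression of guanylate-binding proteins, immunoproteasome subunits and peptide transporters is driven mainly by interferon.

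The arrays carried the genes of the labelled tissue at high level: Sftpc, the surfactant protein C gene, averaged 14.19 ± 0.03 (SD, n = 4) in unaltered lung and 14.18 ± 0.04 (SD, n = 5) in non-transgenic lung, and Ager, a type I cell gene, 12.67 ± 0.06 in unaltered lung and 12.72 ± 0.06 in non-transgenic lung. Neither passed the test, with differences of 0.02 ± 0.05 (adjusted p = 0.847) and -0.05 ± 0.05 (adjusted p = 0.556). Among the non-transgenic arrays, replicates 4 and 5 differed from the rest: over the 14939 transcript clusters their Spearman correlations with replicates 1 to 3 were 0.982 to 0.9862, whereas replicates 1 to 3 reached at least 0.9959 among themselves, replicates 4 and 5 reached 0.9941, and the unaltered arrays 0.9857 to 0.994. The Y-linked gene Eif2s3y was low on exactly these 2 arrays (3.36 and 3.09) and high on the other seven, 8.41 to 8.96 in unaltered lung and 9.17 to 9.28 in non-transgenic replicates 1 to 3. This goes against the labelled sex of non-transgenic replicates 2, 3 and 5, so sex was not part of the fit. Airway RNA varied between arrays of both groups: the club cell gene Scgb3a2 was at 6.15, 8.63, 9.87 and 8.26 in unaltered lung, against 6.64, 6.52, 6.79, 8.94 and 9.50 in non-transgenic lung. Each result below was therefore also set against non-transgenic replicates 1 to 3 and replicates 4 and 5 separately. In tissue RNA, fewer cells of a type and less RNA per cell cannot be told apart. The labels name separate animals, and precision is limited by how many arrays there are.

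**Figure D1:**
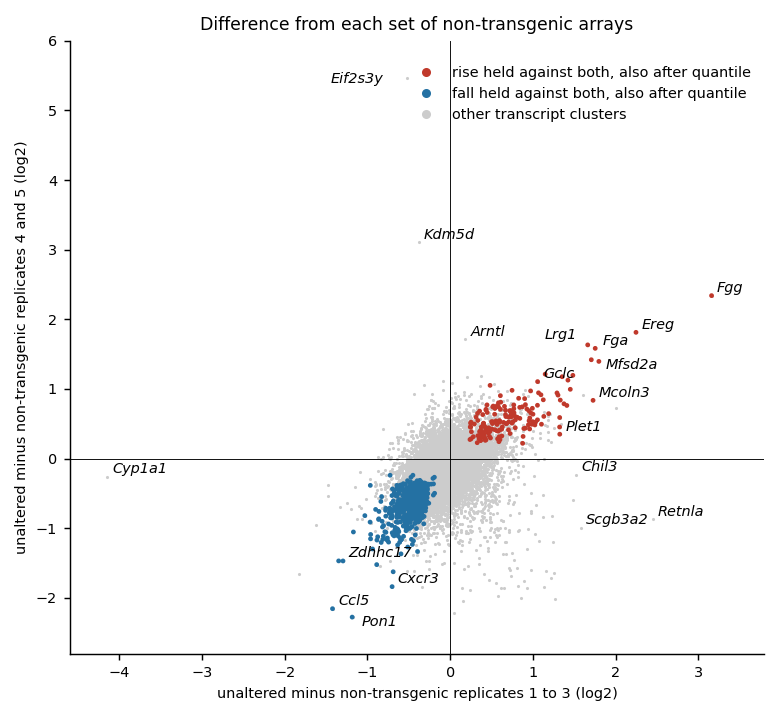
Each point is 1 of the 14939 transcript clusters, at its log2 difference of unaltered lung from non-transgenic replicates 1 to 3 (x axis) and from replicates 4 and 5 (y axis). The 163 rises (red) and 594 falls (blue) held against both sets and after quantile normalization, while Cyp1a1, at -4.15 and -0.26, and Retnla, at 2.45 and -0.87, depended on which set was used.

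In unaltered lung 423 transcript clusters (2.83%) were higher and 2229 (14.9%) lower than in non-transgenic lung (limma, Benjamini-Hochberg adjusted p under 0.05), and these are the genes said to have risen or fallen. Few of the changes were large: 25 of the rises and 18 of the falls reached 2-fold. Taken alone, non-transgenic replicates 1 to 3 gave 784 rises (5.25%) and 2047 falls (13.7%), and replicates 4 and 5 gave 556 rises (3.72%) and 3254 falls (21.8%). Against both sets 165 rises (1.1%) and 1090 falls (7.3%) held. The excess of falls depended on scaling. The median of all transcript clusters was -0.07, with 60.9% of them below 0, and quantile normalization between arrays moved it by 0.10, to 0.03, after which 762 (5.1%) were higher and 637 (4.26%) lower; centring each array on its median gave 1193 higher and 806 lower. Both conditions together left 163 rises (1.09%) and 594 falls (3.98%). The leading genes below are the largest of these whose arrays did not overlap between the groups, so their separation was fixed by that choice. Arrays of the 2 groups did not overlap for 499 transcript clusters that were higher (3.34%) and 2246 that were lower (15%) in unaltered lung.

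The counts rested on the fit. With age as a covariate 150 transcript clusters were called. With only the 9 arrays in the fit 1093 were called, and with labelled sex added to that fit 1 was, Lrg1. Of the 97 called genes named here, 35 kept the call with age as a covariate and 82 with labelled sex, and none turned its direction in any of 27 other fits. A call lost with age does not by itself mean a smaller difference. That of Gbp3 was -0.67 in the main fit and -0.70 with age, and that of Per3 -0.78 and -0.37.

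**Figure D2:**
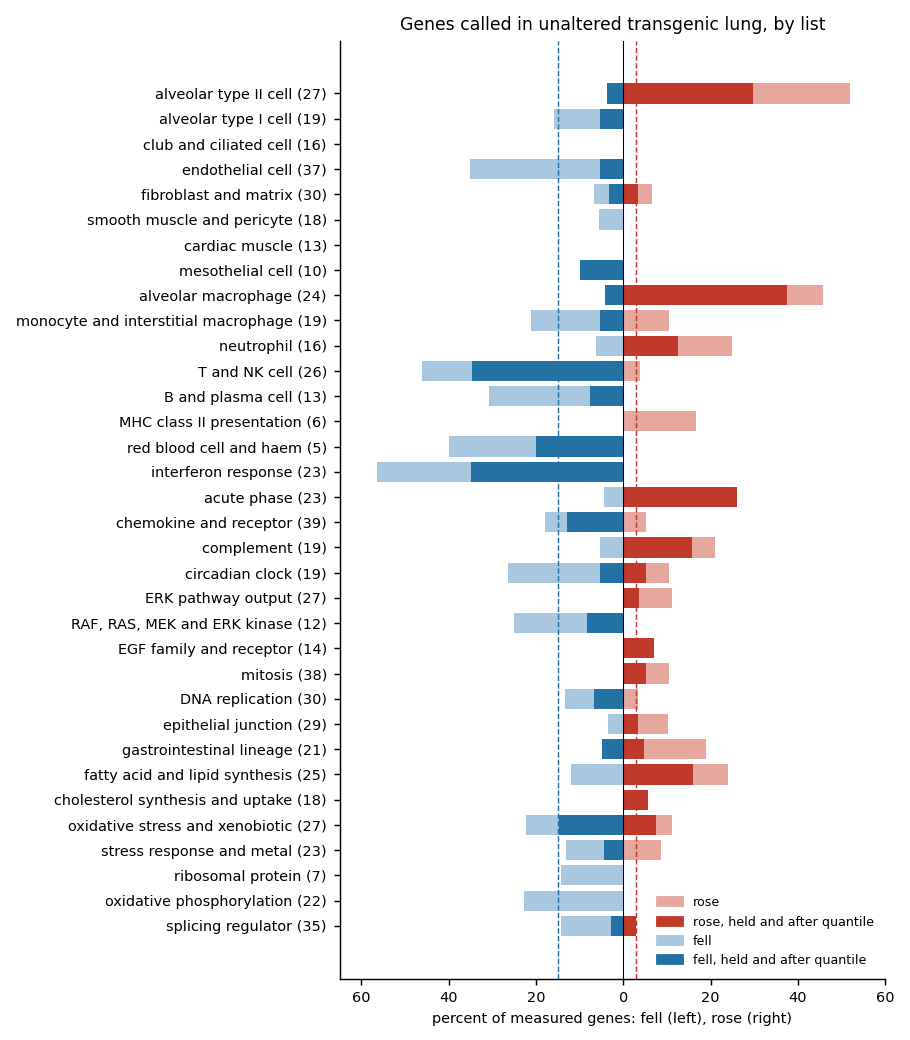
Percent of the measured genes of each of 34 gene lists (number measured in brackets) that fell (left) or rose (right) in unaltered lung; dark parts also held against both sets of non-transgenic arrays and after quantile normalization. Dashed lines mark the shares over all transcript clusters, 14.9% lower and 2.83% higher; alveolar type II cell, alveolar macrophage and acute phase genes reach furthest right, interferon response and T and NK cell genes furthest left.

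Plasma protein genes that the liver makes in an acute phase response were higher in unaltered lung, and Fgg had the largest rise among the leading genes. Of 23 measured acute phase genes 6 rose and 1 fell, beside 2.83% and 14.9% of all transcript clusters, with a median of 0.22 against -0.07 over all. The 6 were the fibrinogen chains Fgg and Fga, Lrg1, Itih4, Lcn2 and Socs3, and all of them held against both sets of non-transgenic arrays and after quantile normalization. Il6st, the shared receptor subunit of interleukin-6 cytokines, was the one that fell, by 0.21 on the log2 scale, a call lost after quantile normalization (adjusted p = 0.213), with labelled sex (0.0591) and with age as a covariate (0.149). The list's mean level per array was 7.40 to 7.69 in the unaltered arrays, against 6.94 to 7.01 in non-transgenic replicates 1 to 3 and 7.18 to 7.23 in replicates 4 and 5.

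Fibrinogen, the precursor of the clot, is built from 3 chains whose genes lie next to each other in the order Fgg, Fga, Fgb on chromosome 3. Because the neighbours did not move alike, the 250 bases before each start are shown (RefSeq, GRCm38.p6, 5′ to 3′ along the gene: Fgg chr3:83007474-83007723, Fga chr3:83025903-83026152 and, on the minus strand, Fgb chr3:83049864-83050113), with those before Itih4 (chr14:30886226-30886475). Capitals mark TTCNNNGAA, the form of a STAT binding motif, which reads the same on both strands.
Fgg: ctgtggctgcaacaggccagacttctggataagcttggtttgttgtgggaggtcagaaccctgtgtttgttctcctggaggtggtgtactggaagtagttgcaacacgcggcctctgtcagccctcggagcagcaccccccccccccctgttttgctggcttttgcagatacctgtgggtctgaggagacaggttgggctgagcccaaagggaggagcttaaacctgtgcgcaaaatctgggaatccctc
Fga: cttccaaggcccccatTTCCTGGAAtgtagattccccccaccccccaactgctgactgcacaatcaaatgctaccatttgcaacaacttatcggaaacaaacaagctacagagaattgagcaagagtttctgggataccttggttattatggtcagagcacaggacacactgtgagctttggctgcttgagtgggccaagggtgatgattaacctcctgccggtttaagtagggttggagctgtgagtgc
Fgb: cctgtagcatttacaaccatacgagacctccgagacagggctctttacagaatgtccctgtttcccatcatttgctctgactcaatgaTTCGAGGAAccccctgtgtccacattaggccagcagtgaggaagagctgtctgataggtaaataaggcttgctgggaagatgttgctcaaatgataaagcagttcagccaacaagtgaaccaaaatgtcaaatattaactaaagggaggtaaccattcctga
Itih4: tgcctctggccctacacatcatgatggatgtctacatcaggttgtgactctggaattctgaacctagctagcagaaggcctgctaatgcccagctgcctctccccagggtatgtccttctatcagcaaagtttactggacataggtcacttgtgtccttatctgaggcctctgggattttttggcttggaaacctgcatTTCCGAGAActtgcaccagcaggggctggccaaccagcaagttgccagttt
The motif stands in the windows of Fga, Fgb and Itih4 and these letters are not in that of Fgg. Of 6 called acute phase genes with a window 3 hold it (50%), as do 6 of all 19 measured ones with a window, against 7.02% of 32851 promoter windows of this length. A gene counts if any of its windows holds the motif, whereas 7.02% is a share of single windows, so the shares are not alike. The match is a description of the sequence and was not tested as a binding site.

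Fgg, the gamma chain, was at 7.76, 8.10, 8.90 and 7.73 in unaltered transgenic replicates 1 to 4, against 5.14, 4.84, 4.90, 5.55 and 6.01 in non-transgenic replicates 1 to 5. Every unaltered array stood at least 1.72 above the highest non-transgenic one, and the rise was 7.12-fold (log2 difference 2.83 ± 0.26 (SE), adjusted p = 3.71e-05). Fga, the alpha chain, was at 7.00, 7.20, 7.72 and 6.52 in unaltered transgenic replicates 1 to 4, against 5.53, 5.20, 5.35, 5.34 and 5.72 in non-transgenic replicates 1 to 5. The groups were again apart, by 0.80, with a log2 difference of 1.69 ± 0.21 (SE), adjusted p = 0.000394. Fgb, the beta chain, stayed near the low end of the scale at 4.45, 4.51, 4.89 and 4.59 in unaltered transgenic replicates 1 to 4, against 4.31, 4.42, 4.34, 4.49 and 4.24 in non-transgenic replicates 1 to 5. Its groups overlapped and it did not pass (0.25 ± 0.15 (adjusted p = 0.293)). Unaltered replicate 3 was the highest array for all 3 chains, and non-transgenic replicate 5 was the highest of its group for Fgg and Fga.

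A cluster of clotting factor genes on chromosome 8, in the order F7, F10 and Proz, rose as well. Proz, the gene of protein Z, which as a cofactor restrains factor X, was at 7.72, 7.69, 8.05 and 7.66 in unaltered transgenic replicates 1 to 4, against 6.40, 6.56, 6.47, 7.02 and 6.72 in non-transgenic replicates 1 to 5, a log2 difference of 1.15 ± 0.12 (SE), adjusted p = 8.48e-05. F7 and F10, the genes of factors VII and X and chosen here as its neighbours after their values were seen, differed by 1.01 ± 0.10 (adjusted p = 8.48e-05) and 0.73 ± 0.10 (adjusted p = 0.000713). In none of the 3 did the groups overlap, with gaps of 0.64, 0.48 and 0.39.

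**Figure D3:**
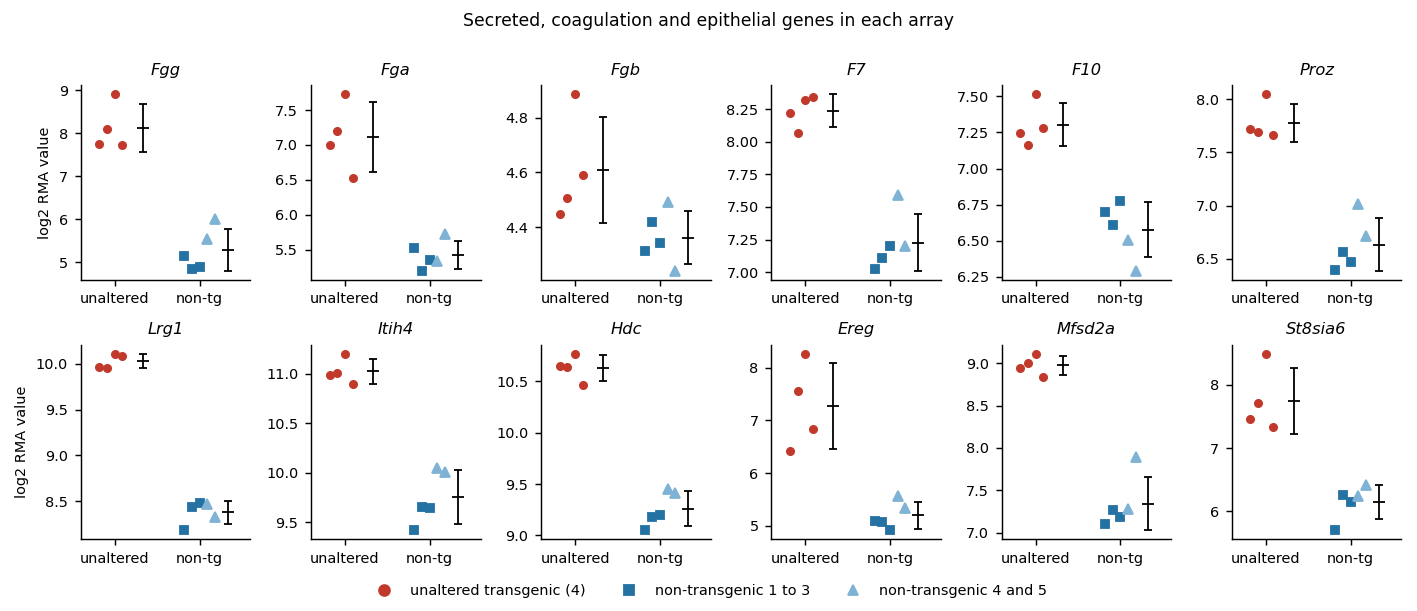
Log2 RMA values of 12 genes in each array of unaltered lung (left of each panel) and of non-transgenic lung (right; squares, replicates 1 to 3; triangles, replicates 4 and 5), with mean and SD as bars. In every panel but that of Fgb the lowest unaltered array lies above the highest non-transgenic one.

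Lrg1, a secreted glycoprotein induced by inflammatory cytokines, was at 9.96, 9.96, 10.11 and 10.09 in unaltered transgenic replicates 1 to 4, against 8.18, 8.44, 8.48, 8.47 and 8.33 in non-transgenic replicates 1 to 5. The unaltered arrays lay between 9.96 and 10.11, the lowest 1.48 above the highest non-transgenic array, a 3.14-fold rise (log2 difference 1.65 ± 0.07 (SE), adjusted p = 1.24e-08). The difference was 1.66 against non-transgenic replicates 1 to 3 and 1.63 against replicates 4 and 5, and the call was kept in all 27 other fits, which is true of no other gene named here. Itih4, a plasma protease-inhibitor family member, was at 10.99, 11.01, 11.20 and 10.90 in unaltered transgenic replicates 1 to 4, against 9.42, 9.65, 9.64, 10.05 and 10.01 in non-transgenic replicates 1 to 5, a log2 difference of 1.27 ± 0.11 (SE), adjusted p = 3.71e-05. Hdc, the enzyme that makes histamine, was at 10.65, 10.64, 10.77 and 10.46 in unaltered transgenic replicates 1 to 4, against 9.05, 9.18, 9.20, 9.46 and 9.41 in non-transgenic replicates 1 to 5, a difference of 1.37 ± 0.13 (SE), adjusted p = 3.71e-05. In both genes the non-transgenic arrays 4 and 5 were the 2 highest of their group and still below every unaltered array. Socs3, the feedback inhibitor of STAT3 signalling, rose by 0.70 ± 0.11 (adjusted p = 0.00195), and Lcn2, an iron-binding lipocalin, by 0.72 ± 0.12 (adjusted p = 0.00242). Socs3 lost its call with age as a covariate (adjusted p = 0.0708).

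Of 19 complement genes 4 rose and 1 fell (21.1% and 5.26%, against 2.83% and 14.9% of all transcript clusters). The list as a whole did not rise: 9 differences were positive and 10 negative, with a median of -0.01. The median was 0.13 against non-transgenic replicates 1 to 3 and -0.25 against replicates 4 and 5, where 3 rose and 4 fell (3.72% and 21.8% of all). The list's mean level was 7.08 to 7.28 in the unaltered arrays, below the 7.29 and 7.30 of replicates 4 and 5. C6, a component of the membrane attack complex, rose by 0.76 ± 0.12 (adjusted p = 0.00127), Cfi, a protease that inactivates C3b, by 0.73 ± 0.12 (adjusted p = 0.00182), and Hc, which encodes complement C5, by 0.68 ± 0.06 (adjusted p = 4.26e-05); all 3 held against both sets. Of 16 neutrophil genes 4 rose and 1 fell (25% and 6.25%), the rises among them Hdc, the collagenase gene Mmp8 at 0.81 ± 0.20 (adjusted p = 0.0158) and Lcn2, while Cxcr4, a homing receptor, fell by 0.67 on the log2 scale, a call lost without unaltered replicate 2 or 3 or non-transgenic replicate 4 or 5 (adjusted p up to 0.0781). The call of Cxcr4 was also lost after quantile normalization, with labelled sex (adjusted p = 0.0683), with age as a covariate (0.285) and with only the 9 arrays (0.0936). Hdc and Lcn2 are also made by epithelium. Cfi and Mmp8 lost their calls with age as a covariate (adjusted p = 0.0606 and 0.103), and against replicates 4 and 5 Mmp8 did not pass (0.51, adjusted p = 0.169).

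Type II cell genes were higher as a group. Of 27 measured, 14 rose and 1 fell, against 2.83% and 14.9% of all transcript clusters, and 24 had a positive difference, with a median of 0.29 (0.35 against non-transgenic replicates 1 to 3 and 0.23 against replicates 4 and 5). In 8 the rise held against both sets and after quantile normalization. The largest was that of Il33, a cytokine stored in the nucleus of type II cells, at 10.95, 11.01, 11.34 and 11.02 in unaltered transgenic replicates 1 to 4, against 10.06, 9.90, 9.88, 10.39 and 10.56 in non-transgenic replicates 1 to 5 (0.92 ± 0.17 (SE), adjusted p = 0.00371). Muc1, a membrane mucin, rose by 0.72 ± 0.10 (adjusted p = 0.000853), Hc by 0.68, Scd1, the desaturase of surfactant lipid synthesis, by 0.66 ± 0.06 (adjusted p = 4.16e-05), and the surfactant protein gene Sftpb by 0.44 ± 0.06 (adjusted p = 0.000648). Cd36, a fatty acid receptor that endothelium and macrophages also carry, was the member that fell. Its call was lost with age as a covariate (adjusted p = 0.114) and with only the 9 arrays (0.0819). The list's mean level was 11.47 to 11.61 in the unaltered arrays, against 11.06 to 11.09 in non-transgenic replicates 1 to 3 and 11.38 to 11.44 in replicates 4 and 5, so non-transgenic replicates 4 and 5 stood between the others. Sftpc itself, at the top of the array's range, did not pass. Il33 lost its call with age as a covariate (adjusted p = 0.0608) and with non-transgenic replicates 1 to 3 left out of the fit (0.054).

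Genes with little expression in non-transgenic lung rose beside them. Ereg, the EGF receptor ligand epiregulin and a known output of ERK signalling, was at 6.43, 7.55, 8.26 and 6.84 in unaltered transgenic replicates 1 to 4, against 5.08, 5.07, 4.91, 5.57 and 5.34 in non-transgenic replicates 1 to 5. All 4 unaltered arrays were above all others, by at least 0.86, but they spread over more than the 5 non-transgenic arrays, with replicate 3 highest and replicate 1 lowest (log2 difference 2.07 ± 0.35 (SE), adjusted p = 0.00225). The call was lost with age as a covariate (adjusted p = 0.0749). St8sia6, a sialyltransferase, was at 7.45, 7.71, 8.49 and 7.33 in unaltered transgenic replicates 1 to 4, against 5.70, 6.26, 6.15, 6.24 and 6.41 in non-transgenic replicates 1 to 5 (1.59 ± 0.22 (SE), adjusted p = 0.000701), and Ptprn, a protein of secretory granule membranes, at 6.93, 7.14, 7.78 and 7.04 in unaltered transgenic replicates 1 to 4, against 6.08, 5.68, 5.84, 5.83 and 6.26 in non-transgenic replicates 1 to 5 (1.28 ± 0.19 (SE), adjusted p = 0.00106). Replicate 3 was highest in both, as for Ereg. Slc26a4, the anion exchanger pendrin, was at 7.42, 7.18, 7.18 and 7.59 in unaltered transgenic replicates 1 to 4, against 6.22, 6.16, 6.21, 6.55 and 5.72 in non-transgenic replicates 1 to 5 (1.17 ± 0.15 (SE), adjusted p = 0.000442), with replicate 4 highest.

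Mfsd2a, a transporter of lysophosphatidylcholine that carries docosahexaenoic acid, was at 8.95, 9.01, 9.11 and 8.84 in unaltered transgenic replicates 1 to 4, against 7.10, 7.26, 7.18, 7.28 and 7.89 in non-transgenic replicates 1 to 5. It was 3.11-fold higher (log2 difference 1.64 ± 0.16 (SE), adjusted p = 8.32e-05), and non-transgenic replicate 5 was the array nearest to the unaltered ones. Of 25 genes of fatty acid and lipid synthesis 6 rose and 3 fell (24% and 12%, against 2.83% and 14.9% of all transcript clusters), with a median of -0.06. After quantile normalization 10 were higher and 0 lower (5.1% and 4.26% of all), with a median of 0.09. The rises included the enzymes of the route from citrate to oleate: Acly by 0.27 ± 0.07 (adjusted p = 0.015), Acaca by 0.51 ± 0.08 (adjusted p = 0.00127), Fasn by 0.89 ± 0.08 (adjusted p = 3.71e-05) and Scd1 by 0.66. Fasn, fatty acid synthase, was at 11.67, 11.62, 11.64 and 11.65 in unaltered lung, against 10.53, 10.73, 10.69, 11.05 and 10.80 in non-transgenic lung, and the unaltered arrays lay closer together than the non-transgenic ones. The rise of Acly did not hold against non-transgenic replicates 4 and 5 (0.17, adjusted p = 0.125), and with age as a covariate the calls of Acaca (0.0618) and Acly (0.186) were lost (adjusted p in brackets). Of 18 genes of cholesterol synthesis and uptake 1 rose (5.56%) and 0 fell, and after quantile normalization 4 were higher.

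The genes that ERK signalling induces as feedback mostly did not pass. Of 27 ERK pathway output genes 3 rose (11.1%, against 2.83% of all transcript clusters), 0 fell (against 14.9%) and 24 did not pass, with a median of 0.00, and after quantile normalization 5 were higher (5.1% of all). Dusp6, the ERK phosphatase, differed by -0.14 ± 0.12 (adjusted p = 0.489), Spry2, a feedback inhibitor of RAS, by -0.25 ± 0.12 (adjusted p = 0.196), the ETS factor gene Etv5 by 0.28 ± 0.10 (adjusted p = 0.0685) and the cyclin gene Ccnd1 by 0.02 ± 0.13 (adjusted p = 0.937), none of which passed; Etv5 passed after quantile normalization (0.43, adjusted p = 0.0217). The members that rose were Ereg and the immediate early genes Egr1, at 0.58 ± 0.16 (adjusted p = 0.0243), and Fos, at 0.47 ± 0.12 (adjusted p = 0.0192). Egr1 and Fos did not hold against non-transgenic replicates 4 and 5 (0.33, adjusted p = 0.244, and 0.20, adjusted p = 0.264). The call of Egr1 was also lost without unaltered replicate 1 or 2 or non-transgenic replicate 2 (adjusted p = 0.0559 to 0.0717), and with labelled sex both were lost (0.105 and 0.056). Of 12 genes of the RAF, RAS, MEK and ERK kinases and their regulators 0 rose and 3 fell (25%, against 14.9% of all), and after quantile normalization 1 was higher and 1 lower. Rras, a small GTPase related to RAS, fell most, at -0.74 ± 0.16 (adjusted p = 0.00783), a call lost with age as a covariate (adjusted p = 0.223) and with only the 9 arrays (0.0642). Of 14 EGF family ligands and receptors Ereg alone rose and none fell, while 13 did not pass.

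Alveolar macrophage genes rose in number more than any other immune list, while the receptor Marco fell. Of 24 measured, 11 rose and 1 fell (45.8% and 4.17%, against 2.83% and 14.9% of all transcript clusters), and 9 of the rises held against both sets and after quantile normalization (1.09% of all). Gpnmb, a glycoprotein of lysosomes in lipid-laden macrophages, was at 9.03, 8.97, 8.99 and 8.99 in unaltered transgenic replicates 1 to 4, against 7.51, 7.63, 7.57, 7.75 and 7.98 in non-transgenic replicates 1 to 5. The 4 unaltered arrays lay closer together than the others and stood at least 0.99 above the highest of them (log2 difference 1.30 ± 0.09 (SE), adjusted p = 3.96e-06). Mrc1, the mannose receptor, was at 10.16, 10.09, 10.42 and 10.07 in unaltered transgenic replicates 1 to 4, against 8.78, 8.81, 8.74, 9.49 and 9.36 in non-transgenic replicates 1 to 5 (1.15 ± 0.15 (SE), adjusted p = 0.000594). Here non-transgenic replicates 4 and 5 lay between replicates 1 to 3 and the unaltered arrays, and the difference was 1.41 against replicates 1 to 3 and 0.76 against replicates 4 and 5.

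Among the other rises, Atp6v0d2, a subunit of the vacuolar proton pump, differed by 1.14 ± 0.15 (adjusted p = 0.000492), the sialic acid receptor gene Siglecf by 0.97 ± 0.12 (adjusted p = 0.000464), Plet1 by 0.94 ± 0.20 (adjusted p = 0.00743), the lysosomal glycoprotein gene Cd68 by 0.85 ± 0.09 (adjusted p = 0.000101) and the cysteine protease gene Ctsk by 0.81 ± 0.13 (adjusted p = 0.00165). Mcoln3, a cation channel of endosomes that was in no list, was at 8.22, 8.13, 8.41 and 8.29 in unaltered transgenic replicates 1 to 4, against 6.44, 6.46, 6.71, 7.37 and 7.48 in non-transgenic replicates 1 to 5 (1.37 ± 0.18 (SE), adjusted p = 0.000624). Like Mrc1 it was intermediate in non-transgenic replicates 4 and 5. Marco, a scavenger receptor for bacteria, was at 6.62, 6.70, 6.56 and 6.73 in unaltered lung, against 6.89, 7.11, 7.01, 7.18 and 7.11 in non-transgenic lung, a small difference of -0.41 ± 0.07 (SE), adjusted p = 0.00212 with no overlap. The list's mean level was 8.65 to 8.73 in the unaltered arrays, against 8.01 to 8.05 in non-transgenic replicates 1 to 3 and 8.47 to 8.54 in replicates 4 and 5, and its median difference was 0.81 against replicates 1 to 3 but 0.15 against replicates 4 and 5. Chil3, a chitinase-like secreted protein of these cells, shows this split: it was at 11.03, 11.11, 11.20 and 11.12 in unaltered lung, against 9.64, 9.60, 9.54, 11.66 and 11.04 in non-transgenic lung and did not pass (0.82 ± 0.36 (adjusted p = 0.14)). Plet1 and Marco lost their calls with age as a covariate (adjusted p = 0.096 and 0.0738).

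Of 19 monocyte and interstitial macrophage genes 2 rose and 4 fell (10.5% and 21.1%, against 2.83% and 14.9% of all transcript clusters). After quantile normalization 3 were higher and 1 lower (5.1% and 4.26% of all), so the lean toward falls depended on scaling. The falls included Adgre4, an adhesion receptor, at -0.94 ± 0.28 (adjusted p = 0.0383), Nr4a1, a nuclear receptor of patrolling monocytes, at -0.85 ± 0.24 (adjusted p = 0.0273), and the receptor gene Treml4 at -0.81 ± 0.15 (adjusted p = 0.00393), of which Treml4 held against both sets. Cd300e, a monocyte receptor that was in no list, fell by 1.00 ± 0.14 (adjusted p = 0.000947). Cd14, the coreceptor for lipopolysaccharide, rose by 0.83 ± 0.21 (adjusted p = 0.017), yet by 0.24 against non-transgenic replicates 4 and 5 (adjusted p = 0.229). The calls of Adgre4 and Nr4a1 were lost on leaving out any of 7 of 9 arrays (all but unaltered replicate 1 and non-transgenic replicate 4; adjusted p up to 0.101) and any of 4 (unaltered replicates 3 and 4, non-transgenic replicates 2 and 5; up to 0.079). After quantile normalization neither passed, and with age as a covariate the calls of Adgre4 (0.297), Nr4a1 (0.482), Treml4 (0.147) and Cd14 (0.174) were lost (adjusted p in brackets).

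Genes of cytotoxic lymphocytes were lower in unaltered lung. Of 26 T and NK cell genes 12 fell and 1 rose, against 14.9% and 2.83% of all transcript clusters, with a median of -0.34, and 9 of the falls held against both sets and after quantile normalization. Ccl5, a chemokine made by effector T and NK cells, was at 7.67, 7.06, 7.52 and 7.99 in unaltered transgenic replicates 1 to 4, against 9.12, 8.98, 8.85, 9.64 and 9.79 in non-transgenic replicates 1 to 5. It was 3.28-fold lower, with every unaltered array at least 0.86 below every other (log2 difference -1.72 ± 0.24 (SE), adjusted p = 0.000853). Gzma, a granule protease, was at 6.38, 6.31, 6.53 and 6.50 in unaltered transgenic replicates 1 to 4, against 6.90, 7.15, 7.31, 8.16 and 7.96 in non-transgenic replicates 1 to 5 (-1.06 ± 0.21 (SE), adjusted p = 0.00504). Non-transgenic replicates 4 and 5 were the highest in both genes, so the difference in Gzma was -0.69 against replicates 1 to 3 and -1.63 against replicates 4 and 5. Ms4a4b, a membrane protein of T cells, was at 4.53, 5.08, 5.00 and 3.84 in unaltered transgenic replicates 1 to 4, against 6.21, 5.67, 5.99, 6.35 and 5.82 in non-transgenic replicates 1 to 5 (-1.40 ± 0.35 (SE), adjusted p = 0.0173). Without unaltered replicate 4, its lowest array, Ms4a4b lost its call (adjusted p = 0.0569). Its unaltered values lay below 5.59, the lower quartile of mean level over all transcript clusters with 1 symbol, and may be background.

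Further falls were those of Gzmb, a granule protease, by 0.98 (adjusted p = 0.00301), the NK receptor gene Ncr1 by 0.88 (0.00566), the granule membrane gene Nkg7 by 0.85 (0.00247), Klrd1, which encodes the NK receptor CD94, by 0.76 (0.00115) and the coreceptor gene Cd8a by 0.72 (0.00393). Like Ms4a4b, Gzmb was low in the unaltered arrays, at 4.32 to 5.26. Cd3e, a chain of the T cell receptor complex, differed by -0.23 ± 0.10 (adjusted p = 0.151) and did not pass, and Cd2, an adhesion receptor of the same cells, rose by 0.40 ± 0.10 (adjusted p = 0.0143). The list's mean level was 6.20 to 6.32 in the unaltered arrays, against 6.62 to 6.71 in non-transgenic replicates 1 to 3 and 6.76 to 6.84 in replicates 4 and 5, with no overlap. With age as a covariate the calls of Ms4a4b, Gzma, Gzmb, Ncr1, Nkg7, Cd8a and Cd2 were lost (adjusted p = 0.163, 0.163, 0.0859, 0.101, 0.0878, 0.0878 and 0.175), and those of Ccl5 and Klrd1 were kept.

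Some receptors that guide lymphocytes were lower. Of 39 chemokine and receptor genes 7 fell and 2 rose (17.9% and 5.13%), shares near the 14.9% and 2.83% of all transcript clusters, and 15 differences were positive. Cxcr3, the receptor of activated T cells for interferon-induced chemokines, was at 6.39, 6.20, 6.02 and 6.21 in unaltered transgenic replicates 1 to 4, against 7.06, 6.79, 6.87, 8.29 and 7.80 in non-transgenic replicates 1 to 5 (-1.16 ± 0.29 (SE), adjusted p = 0.0158). Non-transgenic replicates 4 and 5 were far above replicates 1 to 3, and the difference was -0.70 against the lower set and -1.84 against the higher one. Cxcr5, which leads B cells to follicles, fell by 0.95 ± 0.16 (adjusted p = 0.00247), Cxcr6, a receptor of tissue-resident T cells, by 0.82 ± 0.14 (0.00208) and Ccr7, which leads T cells to lymph nodes, by 0.77 ± 0.14 (0.00321). With labelled sex as a covariate the call of Cxcr3 was lost (adjusted p = 0.0629), and with age those of Cxcr3 (0.174), Cxcr5 (0.0769), Cxcr6 (0.0531) and Ccr7 (0.0865). Of 13 B and plasma cell genes 4 fell (30.8%, against 14.9% of all transcript clusters) and 0 rose, and after quantile normalization 1 was lower (4.26% of all). The B cell gene Ms4a1 fell by 0.93 ± 0.28 (adjusted p = 0.0358) with overlapping arrays, a call lost on leaving out any of 6 of 9 arrays (unaltered replicates 2 to 4, non-transgenic replicates 1 to 3; adjusted p up to 0.103). Mzb1, a chaperone of plasma cells, fell by 0.74 ± 0.17 (adjusted p = 0.0103) and held against both sets, yet its call was lost with age as a covariate (0.119) and with only the 9 arrays (0.0603), and that of Ms4a1 after quantile normalization (0.0819). Ms4a6b, a relative of Ms4a4b and in no list, fell by 1.04 ± 0.12 (adjusted p = 0.000225).

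**Figure D4:**
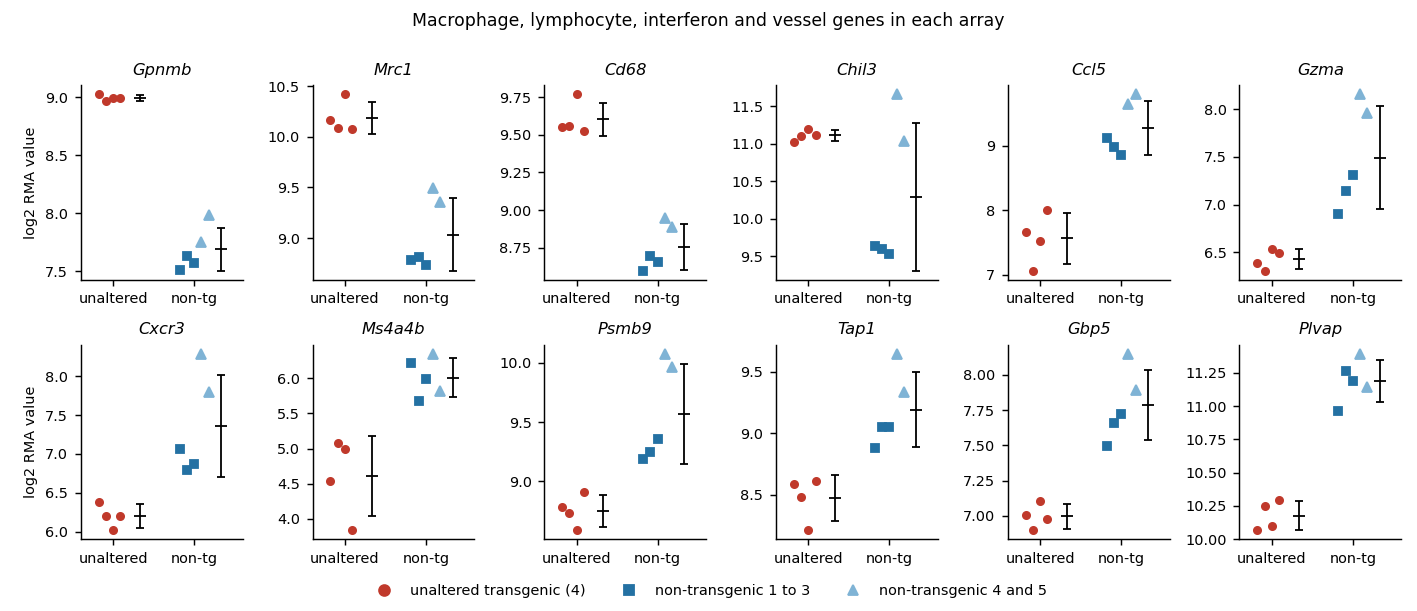
Log2 RMA values of 12 genes of macrophages, lymphocytes, the interferon response and vessels in each array, drawn as in the plot of secreted and coagulation genes. Gpnmb, Mrc1 and Cd68 are higher and Ccl5, Gzma, Cxcr3, Ms4a4b, Psmb9, Tap1, Gbp5 and Plvap lower in all 4 unaltered arrays than in all 5 non-transgenic ones, while Chil3 overlaps.

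Interferon-induced genes fell with the lymphocyte genes. Of 23 measured, 13 fell (56.5%, against 14.9% of all transcript clusters) and 0 rose, with a median of -0.43, -0.42 against non-transgenic replicates 1 to 3 and -0.43 against replicates 4 and 5. After quantile normalization 8 were lower (4.26% of all), all of which also held against both sets. Psmb9, a catalytic subunit of the immunoproteasome, was at 8.78, 8.73, 8.58 and 8.91 in unaltered transgenic replicates 1 to 4, against 9.19, 9.25, 9.35, 10.08 and 9.97 in non-transgenic replicates 1 to 5 (-0.82 ± 0.16 (SE), adjusted p = 0.00502). Tap1, a subunit of the transporter that carries peptides to MHC class I, was at 8.59, 8.49, 8.21 and 8.61 in unaltered transgenic replicates 1 to 4, against 8.88, 9.05, 9.06, 9.65 and 9.34 in non-transgenic replicates 1 to 5 (-0.72 ± 0.14 (SE), adjusted p = 0.00472). In each gene the groups were apart, by 0.28 and 0.27, and non-transgenic replicates 4 and 5 were highest. Psmb9 and Tap1 lie back to back on chromosome 17, and 275 of the 300 bases around their starts are the same stretch. Psmb8, the next gene along and another immunoproteasome subunit, did not follow: it was at 8.42, 8.36, 8.47 and 8.61 in unaltered lung, against 8.31, 8.42, 8.37, 8.64 and 8.56 in non-transgenic lung, with a difference of 0.00 ± 0.07 (adjusted p = 0.986).

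The guanylate-binding proteins, GTPases that attack intracellular pathogens, fell together: Gbp5 by 0.79 ± 0.15 (adjusted p = 0.00428), Gbp3 by 0.67 ± 0.14 (0.00538) and Gbp2 by 0.62 ± 0.13 (0.00738). Irgm1, a GTPase of the same response, fell by 0.46 ± 0.08 (0.00343). Because they moved together, the 250 bases before the starts of 3 of them are shown (RefSeq, GRCm38.p6, 5′ to 3′ along the gene: Gbp2 chr3:142620413-142620662, Gbp3 chr3:142559794-142560043 and, on the minus strand, Irgm1 chr11:48871421-48871670), with the core of the interferon-stimulated response element in capitals. The core searched is TTTC, any 2 bases and TTTC again, on either strand; on the opposite strand it reads as GAAA, any 2 bases and GAAA. In Gbp3 and Irgm1 a pair of overlapping matches forms 1 run of capitals. For each gene the first window with a match was taken where it had one, so the matches shown follow from that choice. Tap1 was searched in the same way and held 0 matches, and no window of Gbp5 is shown.
Gbp2: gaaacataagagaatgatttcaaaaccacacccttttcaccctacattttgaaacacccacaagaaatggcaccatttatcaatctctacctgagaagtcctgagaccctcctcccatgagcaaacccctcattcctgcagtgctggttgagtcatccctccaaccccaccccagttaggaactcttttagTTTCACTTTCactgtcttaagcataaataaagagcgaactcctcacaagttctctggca
Gbp3: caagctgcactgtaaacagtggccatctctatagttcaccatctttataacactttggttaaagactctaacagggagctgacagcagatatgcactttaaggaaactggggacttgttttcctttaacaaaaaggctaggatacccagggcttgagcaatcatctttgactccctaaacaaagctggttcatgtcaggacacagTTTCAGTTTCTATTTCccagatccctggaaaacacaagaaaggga
Irgm1: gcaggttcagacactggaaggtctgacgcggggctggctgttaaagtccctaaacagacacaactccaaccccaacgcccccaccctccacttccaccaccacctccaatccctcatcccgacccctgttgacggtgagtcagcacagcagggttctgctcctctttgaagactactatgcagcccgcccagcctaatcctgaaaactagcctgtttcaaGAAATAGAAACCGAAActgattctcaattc
Of the 11 interferon genes that fell and have a window, 6 hold the motif (54.5%), and of all 18 measured ones with a window 9 do (50%), against 2.98% of 32851 windows. Here too a gene counts if any of its windows holds the motif, whereas 2.98% is a share of single windows. The share in the genes that fell is thus close to that in the whole list. Psmb9, Tap1, Gbp5, Gbp3, Gbp2 and Irgm1 lost their calls with age as a covariate (adjusted p = 0.123, 0.0965, 0.105, 0.0964, 0.165 and 0.112). Their differences in that fit were -0.76, -0.73, -0.75, -0.70, -0.55 and -0.41. Ido1, an interferon-induced enzyme of tryptophan breakdown named as one of the largest falls, was lower by 0.97 ± 0.16 on the log2 scale (adjusted p = 0.00173, and 0.0929 with age).

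Vessel genes leaned downward. Of 37 endothelial genes 13 fell (35.1%, against 14.9% of all transcript clusters) and none rose, and 35 had a negative difference, with a median of -0.35. After quantile normalization 4 were lower (4.26% of all were) and the median was -0.26, and 2, Plvap and Esam, also held against both sets. Plvap, which forms the diaphragms of fenestrated capillaries, was at 10.07, 10.25, 10.10 and 10.29 in unaltered transgenic replicates 1 to 4, against 10.96, 11.27, 11.19, 11.39 and 11.14 in non-transgenic replicates 1 to 5. It was 2.02-fold lower, with 0.67 between the groups (log2 difference -1.01 ± 0.12 (SE), adjusted p = 0.000257). Esam, an adhesion protein of endothelial junctions, fell by 0.50 ± 0.09 (adjusted p = 0.00306). Fibin was lower by 0.90 (adjusted p = 0.0148), the tight junction gene Cldn5 by 0.69 (0.0402) and the arterial transcription factor gene Sox17 by 0.61 (0.0268). Cldn5 lost its call on leaving out any array but non-transgenic replicate 5 (adjusted p up to 0.0984), and Sox17 without unaltered replicate 2 or 3 or non-transgenic replicate 2 or 3 (up to 0.0721). With age as a covariate the calls of Esam (0.116), Fibin (0.342), Cldn5 (0.262) and Sox17 (0.355) were lost (adjusted p in brackets) and that of Plvap was kept. Pecam1, present on all endothelium, averaged 11.85 ± 0.08 (SD, n = 4) in unaltered lung and 12.01 ± 0.16 (SD, n = 5) in non-transgenic lung and did not pass (-0.16 ± 0.11 (adjusted p = 0.321)).

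Of 19 type I cell genes 3 fell (15.8%, close to the 14.9% of all transcript clusters) and none rose, and after quantile normalization 1 was higher and 1 lower. The falls were led by the binding protein gene Igfbp2 at -0.73 ± 0.16 (adjusted p = 0.00798) and the caveolin gene Cav2 at -0.43 ± 0.09 (adjusted p = 0.00691), and the list's median was -0.16. Cav2 lost its call after quantile normalization (adjusted p = 0.0707), and with age as a covariate both were lost (0.138 and 0.14). Fibroblast and matrix genes showed 2 rises and 2 falls among 30, and smooth muscle genes 1 fall among 18. None of 16 club and ciliated cell genes passed, with a median of 0.52 against non-transgenic replicates 1 to 3 and -0.95 against replicates 4 and 5. The club cell gene Scgb1a1 was at 12.32, 13.60, 13.92 and 13.45 in unaltered lung, against 12.61, 12.95, 12.76, 13.70 and 13.77 in non-transgenic lung. None of 13 cardiac muscle genes passed either; these genes, which mark the sleeve of heart muscle around pulmonary veins, had mean levels of 5.18, 5.99, 6.69 and 5.71 in the unaltered arrays against 5.36 to 5.48 in the non-transgenic ones. Myl7, an atrial myosin light chain, was at 4.66, 6.33, 8.08 and 5.95 in unaltered lung, against 5.17, 5.48, 5.39, 5.16 and 5.37 in non-transgenic lung. Without unaltered replicate 3, the array highest in cardiac genes, 302 of all 14939 transcript clusters were higher and 1807 lower. In that fit 12 of 27 type II cell, 10 of 24 alveolar macrophage and 6 of 23 acute phase genes rose. The falls were 11 of 26 T and NK cell, 15 of 23 interferon response and 9 of 37 endothelial genes.

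Clock output genes moved in opposite directions. Of 19 circadian clock genes 2 rose and 5 fell (10.5% and 26.3%, against 2.83% and 14.9% of all transcript clusters), and after quantile normalization 2 were higher and 2 lower. Dbp, a transcription factor whose level follows the clock, was at 8.89, 8.63, 7.57 and 8.55 in unaltered transgenic replicates 1 to 4, against 9.30, 9.73, 9.72, 10.41 and 10.95 in non-transgenic replicates 1 to 5 (-1.61 ± 0.39 (SE), adjusted p = 0.0143), and unaltered replicate 3 was lowest. Its relative Hlf was at 7.41, 7.36, 7.52 and 7.44 in unaltered lung, against 8.17, 7.96, 8.07, 8.17 and 9.17 in non-transgenic lung (-0.88 ± 0.18 (SE), adjusted p = 0.00574). Nfil3, which represses the genes that Dbp and Hlf activate, was higher in unaltered lung, at 7.45, 7.46, 8.28 and 7.85 in unaltered transgenic replicates 1 to 4, against 6.49, 6.71, 6.79, 6.69 and 7.01 in non-transgenic replicates 1 to 5 (1.03 ± 0.21 (SE), adjusted p = 0.00621). Hlf and Nfil3 held against both sets of non-transgenic arrays, though with replicates 1 to 3 left out of the fit Nfil3 missed the threshold (adjusted p = 0.0535), and Dbp did not hold (adjusted p = 0.0598 against replicates 1 to 3). The period gene Per3 fell by 0.78 (adjusted p = 0.0372) and Npas2, a partner of Arntl, rose by 0.64 (0.0482), and each lost its call on leaving out any of 8 of 9 arrays, all but non-transgenic replicate 1 (adjusted p up to 0.085 and 0.128). Arntl, a core activator of the clock, was at 8.17, 8.22, 8.57 and 8.25 in unaltered lung, against 8.03, 8.19, 8.13, 6.99 and 6.19 in non-transgenic lung, low in non-transgenic replicates 4 and 5 alone, and did not pass (0.79 ± 0.37 (adjusted p = 0.167)). The hour at which tissue was taken is not given in the sources used here. Age as a covariate took the calls of Dbp (0.324), Hlf (0.226), Nfil3 (0.0927), Per3 (0.586) and Npas2 (0.614) above the threshold (adjusted p in brackets).

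**Figure D5:**
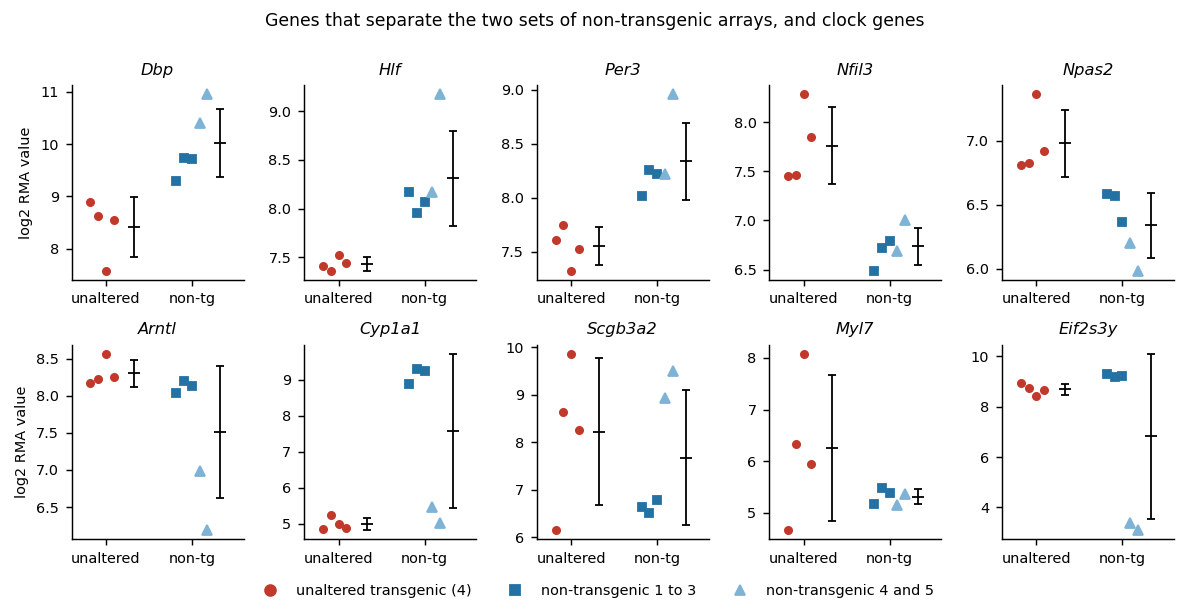
Log2 RMA values of clock genes and of genes that separate the sets of non-transgenic arrays, for unaltered lung (left) and non-transgenic lung (right; squares, replicates 1 to 3; triangles, replicates 4 and 5), with mean and SD. Hlf and Per3 are lower in every unaltered array, while Cyp1a1 is high in non-transgenic replicates 1 to 3 alone and Arntl and Eif2s3y low in replicates 4 and 5 alone.

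Genes of oxidative and xenobiotic defence split. Of 27 measured, 3 rose and 6 fell (11.1% and 22.2%, against 2.83% and 14.9% of all transcript clusters). After quantile normalization 3 were higher and 5 lower (5.1% and 4.26% of all). Gclc, the rate-limiting enzyme of glutathione synthesis, was at 11.15, 11.30, 11.62 and 11.38 in unaltered transgenic replicates 1 to 4, against 10.21, 10.40, 10.31, 10.35 and 10.17 in non-transgenic replicates 1 to 5, a 2.11-fold rise (log2 difference 1.08 ± 0.12 (SE), adjusted p = 0.000159). Hmox1, which degrades haem, rose by 0.67 ± 0.14 (adjusted p = 0.00763). Nqo1, a quinone reductase that like Gclc and Hmox1 is a known target of NRF2, fell instead, by 0.82 ± 0.16 (adjusted p = 0.00472). Pon1, the paraoxonase, was at 6.41, 7.42, 8.44 and 7.24 in unaltered transgenic replicates 1 to 4, against 8.52, 8.57, 8.59, 9.28 and 10.03 in non-transgenic replicates 1 to 5 (-1.62 ± 0.35 (SE), adjusted p = 0.00783). Its unaltered arrays spread widely, replicate 3 lay just 0.08 below the lowest non-transgenic array, and non-transgenic replicate 5 was the highest. Cyp1a1, the enzyme induced by the aryl hydrocarbon receptor, had the largest average fall, at 4.85, 5.24, 5.00 and 4.89 in unaltered transgenic replicates 1 to 4, against 8.88, 9.31, 9.23, 5.48 and 5.03 in non-transgenic replicates 1 to 5. It was high in non-transgenic replicates 1 to 3 alone, so the pooled difference of -2.59 ± 0.75 (adjusted p = 0.0316) is -4.15 against that set and -0.26 (adjusted p = 0.361) against replicates 4 and 5. Its call was lost on leaving out any unaltered array or any of non-transgenic replicates 1 to 3 (adjusted p up to 0.073). With age as a covariate the calls of Hmox1 (0.147), Nqo1 (0.169), Pon1 (0.198) and Cyp1a1 (0.162) were lost (adjusted p in brackets).

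The remaining leading falls belonged to no list. Zdhhc17, a palmitoyltransferase, was at 5.89, 6.52, 6.87 and 6.23 in unaltered transgenic replicates 1 to 4, against 7.81, 7.50, 7.70, 7.95 and 7.74 in non-transgenic replicates 1 to 5 on one of its transcript clusters (-1.37 ± 0.20 (SE), adjusted p = 0.000956), and a second cluster of the gene differed by -0.47, so the array's probes for it disagree in size. Xpnpep2, a membrane aminopeptidase that degrades bradykinin, was at 7.05, 6.89, 6.92 and 6.96 in unaltered lung, against 7.74, 7.91, 7.89, 8.26 and 8.70 in non-transgenic lung (-1.14 ± 0.18 (SE), adjusted p = 0.00149). Akr1c19, an aldo-keto reductase, was at 4.73, 5.12, 5.22 and 4.62 in unaltered lung, against 6.08, 5.86, 6.34, 5.90 and 6.06 in non-transgenic lung (-1.12 ± 0.15 (SE), adjusted p = 0.000707). Its unaltered values lay below 5.59, the lower quartile of mean level over all transcript clusters with 1 symbol. Hoxb2, a homeobox factor, was at 6.52, 6.61, 6.72 and 6.51 in unaltered lung, against 7.25, 7.72, 7.63, 7.77 and 8.01 in non-transgenic lung (-1.08 ± 0.19 (SE), adjusted p = 0.00252). As the choice of leading genes required, the groups were apart in all of them, by at least 0.52. With age as a covariate the calls of Xpnpep2 (0.0752) and Hoxb2 (0.0975) were lost (adjusted p in brackets).

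Growth-related and housekeeping lists had few calls. Of 38 mitosis genes 4 rose (10.5%, against 2.83% of all transcript clusters) and none fell, among them the cytokinesis genes Anln at 0.58 ± 0.11 (adjusted p = 0.0047) and Kif23 at 0.53 ± 0.12 (adjusted p = 0.00783), with a median of 0.15. Of 30 DNA replication genes 1 rose and 4 fell. Of 21 genes of the gastrointestinal lineage 4 rose and 1 fell. Fetub, a secreted fetuin, was at 7.32, 7.35, 8.37 and 7.37 in unaltered lung, against 5.49, 5.75, 5.54, 6.23 and 7.53 in non-transgenic lung, so non-transgenic replicate 5 overlapped the unaltered arrays (1.49 ± 0.34 (adjusted p = 0.0105)). The mucin gene Muc4 rose by 0.80 ± 0.17 (adjusted p = 0.00707) and the hyaluronan receptor gene Cd44 by 0.61 ± 0.11 (adjusted p = 0.00328), and the chloride channel gene Cftr fell by 0.89 ± 0.11 (adjusted p = 0.000358). With age as a covariate the calls of Anln (0.142), Kif23 (0.148), Fetub (0.0618), Muc4 (0.0785) and Cd44 (0.102) were lost (adjusted p in brackets) and that of Cftr was kept. Fetub and Muc4 were also lost with only the 9 arrays (0.0709 and 0.0562) and with non-transgenic replicates 1 to 3 left out of the fit, and Fetub with labelled sex (0.0694). Epithelial junction genes showed 3 rises and 1 fall among 29, stress response genes 2 rises and 3 falls among 23, and MHC class II genes 1 rise among 6. Falls without a rise were seen in 5 of 22 oxidative phosphorylation genes, 1 of 7 ribosomal protein genes, 1 of 10 mesothelial genes and 2 of 5 red blood cell genes, with Alas2, the haem synthesis enzyme of red cell precursors, at -0.51 ± 0.09 (adjusted p = 0.00293). Alas2 lost its call with age as a covariate (adjusted p = 0.0778). Splicing regulators gave 1 rise and 5 falls among 35, and the sets of non-transgenic arrays differed in direction. Against replicates 1 to 3 there were 1 rise and 12 falls (5.25% and 13.7% of all), with a median of -0.27. Against replicates 4 and 5 there were 9 rises and 3 falls (3.72% and 21.8% of all), with a median of 0.03. Rises made up 19% of gastrointestinal, 10.3% of junction and 8.7% of stress response genes, each above the 2.83% of all. Of these rises 1, 1 and 0 held against both sets. Junction genes depended on the set: against replicates 4 and 5 they gave 1 rise and 12 falls (3.72% and 21.8% of all). Their median was -0.27 against that set and 0.17 against replicates 1 to 3. With all non-transgenic arrays, the shares of falls of the lists of this paragraph are near or below the 14.9% of all transcript clusters except in oxidative phosphorylation (22.7%) and in red blood cell genes (40%), and after quantile normalization 0 oxidative phosphorylation gene was lower.

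The leading genes were also set beside the lesions of the same line as levels, with no test, since the comparisons share arrays. In order of stage, Ereg averaged 5.20 ± 0.26 in non-transgenic lung, 7.27 ± 0.81 in unaltered transgenic lung, 9.87 ± 0.93 in dysplasia and 10.22 ± 0.18 in adenocarcinoma (SD; n = 5, 4, 4 and 4). St8sia6 averaged 6.15 ± 0.27 in non-transgenic lung, 7.75 ± 0.52 in unaltered transgenic lung, 10.26 ± 0.48 in dysplasia and 10.72 ± 0.11 in adenocarcinoma, and Ptprn 5.94 ± 0.23 in non-transgenic lung, 7.22 ± 0.38 in unaltered transgenic lung, 9.45 ± 0.47 in dysplasia and 10.19 ± 0.11 in adenocarcinoma. In these 3 genes the unaltered mean lay between that of non-transgenic lung and those of the lesions. Fgg averaged 5.29 ± 0.49 in non-transgenic lung, 8.12 ± 0.55 in unaltered transgenic lung, 7.97 ± 0.36 in dysplasia and 7.97 ± 0.22 in adenocarcinoma, and Mfsd2a 7.34 ± 0.32 in non-transgenic lung, 8.98 ± 0.11 in unaltered transgenic lung, 8.88 ± 0.29 in dysplasia and 8.74 ± 0.24 in adenocarcinoma, so for both the mean of unaltered lung was above those of the lesions. Ccl5 averaged 9.28 ± 0.42 in non-transgenic lung, 7.56 ± 0.39 in unaltered transgenic lung, 7.45 ± 0.48 in dysplasia and 7.61 ± 0.24 in adenocarcinoma, with the 3 transgenic groups close to each other. Akr1c19 averaged 6.05 ± 0.19 in non-transgenic lung, 4.92 ± 0.29 in unaltered transgenic lung, 7.26 ± 0.23 in dysplasia and 8.31 ± 0.21 in adenocarcinoma: its level was lowest in unaltered lung and highest in adenocarcinoma.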

How the data were processed

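RNA of laser-microdissected tissue was measured on Affymetrix mouse exon arrays; per the labels' protocols, ribosomal RNA was reduced and the RNA amplified. The deposited values are log2 RMA values, which the authors computed in Expression Console over core exons, per the labels; GCOS is named in the submitters' processing notes, with no version. They run from 1.13 to 14.3 and were used without a filter. RMA shares a quantile step between arrays, so levels are relative, and differences near the low end are compressed. The genome build is not given in the sources used here.

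Of 23238 transcript clusters, 14939 had 1 gene symbol in GEO's platform annotation, 989 several and 7310 none; 14884 symbols matched RefSeq (GRCm38.p6). The comparison used limma 3.58.1 (R 4.3.3) on all 17 arrays, with 4 group means, a random block for the animal (duplicateCorrelation, 0.2446), no sex term and eBayes. P-values were Benjamini-Hochberg adjusted over all 23238 transcript clusters, and the threshold was 0.05. A second fit split the non-transgenic arrays into replicates 1 to 3 and 4 and 5; a change held if it was called in the main fit and, in the same direction, against each set. These contrasts share the unaltered arrays. Replicate numbers follow the order of deposit and pair nothing.

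The text names model genes, then the 14 top rises and 14 top falls by size that held, were called after quantile normalization and did not overlap, and up to 4 called members of each of 35 gene lists (894 genes, 694 measured, each at its transcript cluster with the highest mean). Other list members and F7 and F10 were chosen after their values were seen. Lists, members and tests were chosen with earlier results of these data known. The steps were tested on simulated data.

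Alternatives were labelled sex, age, no block, the 9 arrays alone, quantile, cyclic loess and median scaling, low-value filters, trend and robust eBayes, array weights, subsets of arrays and leaving out each array. List counts without unaltered replicate 3 and a fit with the first number of the animal label as the block were added after seeing the data. Motifs were searched in the 250 bases before RefSeq starts, on both strands. The level of the transgene's own gene is not reported here.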

Additional observations from a re-analysis of the deposited data

Results flagged for a closer look

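For the genes named in the text, 1 array stood far from the rest of its group in 18 of 230 sets of values, 1 for each gene and group. The gap to the nearest array, as a share of the group's whole range, was above 0.829 for 4 arrays or 0.71 for 5, Dixon's critical values. Chance alone flags about 1 in 20 such sets. In brackets are the log2 value of that array, that of the next one, and the share. Unaltered replicate 3 was high for Proz (8.05, next 7.72; 0.844), Cd68 (9.77, next 9.56; 0.872), Hc (12.72, next 12.63; 0.829), Fetub (8.37, next 7.37; 0.955) and Muc4 (7.68, next 7.20; 0.902), and low for Esam (10.07, next 10.36; 0.858) and Cd36 (12.39, next 12.46; 0.865). Unaltered replicate 2 was low for Cd3e (7.41, next 7.57; 0.848) and Gbp3 (8.30, next 8.52; 0.973). Non-transgenic replicate 4 was high for Socs3 (7.82, next 7.64; 0.855), Hc (12.17, next 11.94; 0.758), Ms4a6b (8.42, next 8.14; 0.717) and Cfi (5.14, next 4.92; 0.754). Non-transgenic replicate 5 was high for Mfsd2a (7.89, next 7.28; 0.776), Spry2 (10.61, next 10.12; 0.757), Hlf (9.17, next 8.17; 0.822) and Per3 (8.96, next 8.26; 0.742), and low for Cd44 (8.21, next 8.62; 0.761). Unaltered replicate 3 was also the highest of its group in cardiac genes, and its part in these values was not tested.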

How the results depend on the processing

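The count of called transcript clusters, 2652, and of those held against both sets of non-transgenic arrays, 1255, changed by more than 1.5 times in several fits, in which they were 1553 and 739 with labelled sex as a covariate, 1093 and 615 with only the 9 arrays, 1 and 1 with only the 9 arrays and labelled sex, 150 and 142 with age, 1399 and 665 after quantile normalization, 1528 and 707 after cyclic loess (774 called higher and 754 lower), 841 and 434 on leaving out arrays labelled with 2 animals and 434 and 58 in animals labelled male. Median centring left 825 held. Among non-transgenic arrays only replicates 1 and 5 are labelled male, so the fit of animals labelled male rests on these for that group. The cause was not tested, except that fewer arrays entered some of these fits. Leaving out each array in turn gave 1494 to 2763 calls and 532 to 1327 held; calls were fewest without unaltered replicate 2, and without non-transgenic replicates 2, 3 and 5 there were 584, 532 and 620 held. With no block, low-value filters, 1-symbol transcript clusters alone, trend and robust eBayes, array weights or either set of non-transgenic arrays alone the counts stayed within 1.5 times. Of 97 called genes named in the text, 15 lost the call with labelled sex, 62 with age, 50 in animals labelled male, 9 after quantile normalization and at most 9 on leaving out 1 array. Of 35 list medians 25 kept their sign after both normalizations and 22 had the same sign against both sets. The Y-linked genes Eif2s3y and Kdm5d, not called with all arrays, turned to -0.52 (adjusted p = 0.0377) and -0.38 (0.0158) against non-transgenic replicates 1 to 3 alone. Unaltered and non-transgenic arrays share no animal, and the labels do not say what the number before the dot of an animal label stands for; with its first value as a random replicate block in place of the animal (2 such numbers occur in both groups; chosen after seeing the data, within-block correlation -0.0619) the counts were 2697 and 1221, and all 97 genes kept their calls. With 4 and 5 arrays, differences under about the spread between arrays cannot be resolved, and values near the low end of the scale may be background.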
